A study of Mus musculus with 7 samples.

Results

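The suppressors of cytokine signalling form a family of 8 genes in the mouse, Cish and Socs1 to Socs7, and all 8 were measured among the 19939 genes with a probeset of their own on the arrays. The members were chosen by gene symbol alone, and the brightest probeset on average was used where a gene had several. Expression was measured in lung CD11b+ conventional dendritic cells (cDC2s), a dendritic cell subset that carries inhaled antigen to the lymph node, in a gate that kept cells positive for CD11c, MHC-II and CD11b and left out those with Ly6C or CD64. Every group came from female mice on the C57Bl/6 background. Each array held RNA from a pool of cells of 10 mice, taken 12 hours after treatment. There were 2 arrays from wild type mice given PBS, 2 from wild type mice given 100 µg of house dust mite extract (HDM), and 3 from Irf3-deficient mice given the same dose of extract. Irf3-deficient cells given PBS were not analysed here, so a genotype difference after HDM cannot be told apart from one present without it. Irf3 encodes a transcription factor that starts type I interferon production. Its allele, whether it was lacking in all cells, the age of the mice and the number of days over which pools were made are not given in the sources used here.

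Cytokine receptors of the JAK-STAT type carry no kinase of their own: ligand binding activates attached Janus kinases, which phosphorylate STAT factors that then enter the nucleus. SOCS proteins are the feedback brake on this route. Each has an SH2 domain that binds phosphotyrosine and a SOCS box that recruits a ubiquitin ligase built on elongins and a cullin, and SOCS1 and SOCS3 also block the kinase directly. Several of the genes are themselves STAT targets, so a rise in their RNA commonly follows signalling through the receptors that they restrain. In dendritic cells SOCS1 is known as a brake on interferon signalling and on activation.

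Values are log2 expression levels, on which a difference of 1 is a doubling. A gene is said to have risen, or to be higher or lower, only where its adjusted p lay under 0.05 in a limma fit over all 19939 genes, two-sided, with Benjamini-Hochberg adjustment; every adjusted p below comes from that fit. Intervals are 95% confidence intervals. Over all genes, the correlation between arrays was 0.995 to 0.997 within groups and 0.973 to 0.990 across them. Irf3 followed the labels: it was lower in the Irf3-deficient arrays than in HDM-treated wild type, by a difference of -1.35 ± 0.10 (SE, adjusted p = 2.11e-06).

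The family divided into 2 responsive genes and 6 whose HDM and PBS levels did not pass the test. In wild type cells, mite extract raised Socs1 by 2.44-fold and Socs2 by 2.49-fold. Both genes were lower in HDM-treated Irf3-deficient cells than in HDM-treated wild type cells, Socs1 by 1.83-fold and Socs2 by 1.28-fold, and both were still above PBS-treated wild type there. Socs7 was also lower in the Irf3-deficient cells, a difference that rested on a single HDM-treated wild type array. Between HDM- and PBS-treated wild type, 2 of the 8 members rose and the other 6 were not called, against 17.6% of all genes called (8.35% higher and 9.23% lower). Between the HDM-treated genotypes, 3 of 8 members were lower without Irf3 and the other 5 were not called, against 19.7% of all genes (10.7% higher and 9% lower). Between HDM-treated Irf3-deficient and PBS-treated wild type cells, 2 of 8 members were higher and the other 6 were not called, against 10.8% of all genes (5.89% higher and 4.9% lower). When the 3 groups were tested jointly with limma's F statistic, Socs1 and Socs2 passed, that is 2 of 8 members, beside 25.5% of all genes. The 3 comparisons share arrays: the HDM-treated wild type pools enter the first and second with opposite signs. In bulk samples like these pools, fewer cells of a type and less RNA per cell cannot be told apart.

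**Figure D1:**
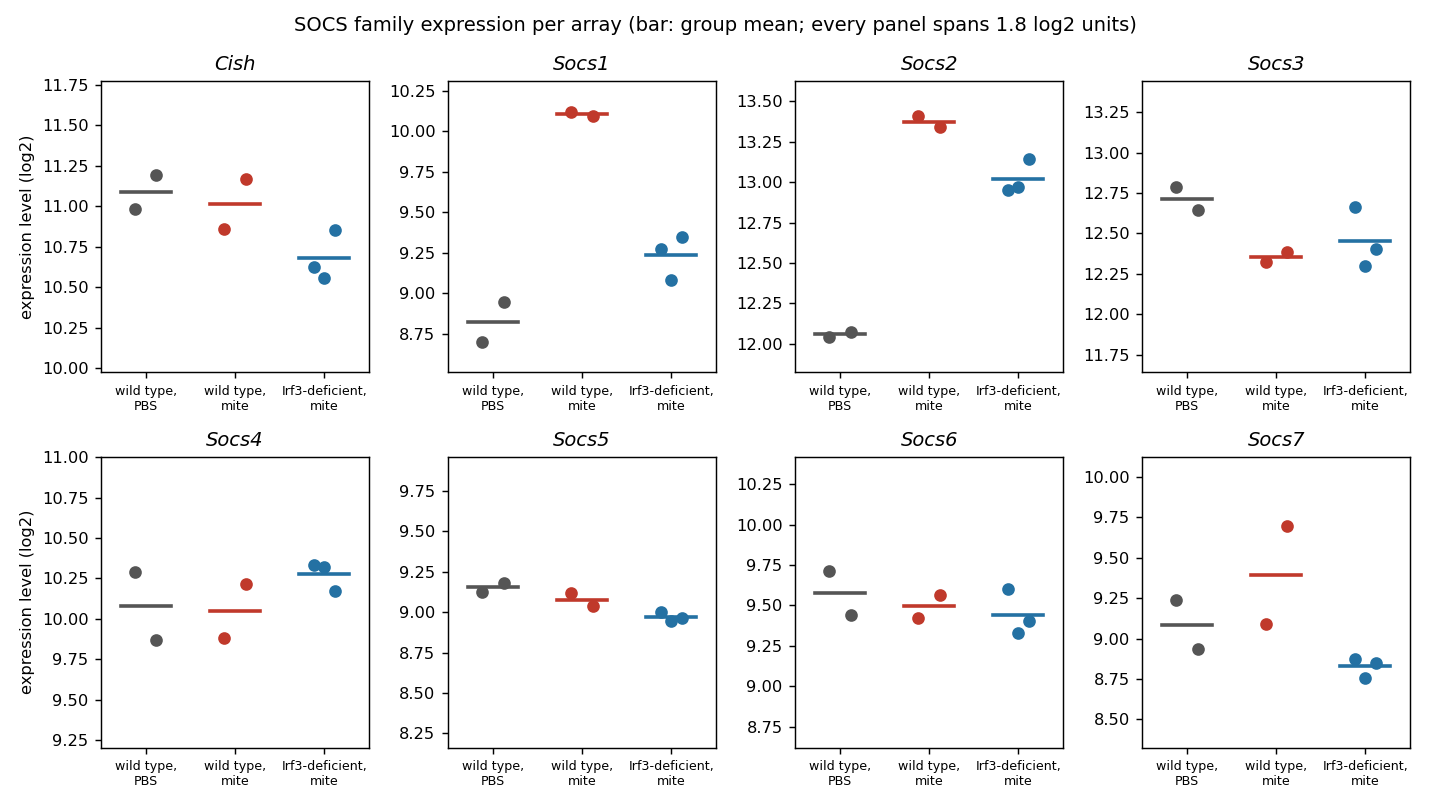
Expression level (log2) of the 8 SOCS family genes in each of the 7 arrays, with a bar at each group mean; each panel spans the same range of log2 units around its own gene. Socs1 and Socs2 were highest in HDM-treated wild type, at means of 10.11 and 13.37, and lowest in PBS-treated wild type, at 8.82 and 12.06.

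Socs1, the member best known for restraining interferon receptors, had the pattern of a gene that rose with treatment and stood lower without Irf3. Its level was 8.70 and 8.95 in wild type given PBS, 10.12 and 10.10 in wild type given HDM, and 9.27, 9.08 and 9.35 after HDM without Irf3. The groups did not overlap in any comparison, with HDM-treated wild type highest, Irf3-deficient between and PBS-treated wild type lowest. The rise in wild type was 1.29 ± 0.13 (SE; interval 1.00 to 1.57; adjusted p = 1.94e-05), or 2.44-fold (2.00 to 2.97). The HDM-treated genotypes differed by -0.87 ± 0.12 (interval -1.13 to -0.62; adjusted p = 0.000228). The Irf3-deficient mean therefore lay 32.0% of the way from PBS- to HDM-treated wild type. That remaining distance, 0.41 ± 0.12 above PBS-treated wild type, passed at adjusted p = 0.0441 and was lost under 6 of 16 other settings, among them leaving out replicate 1 of PBS-treated wild type (0.29, adjusted p = 0.356).

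The promoter of Socs1 is shown because it holds the letters of an interferon-type element. Sequences were taken from the RefSeq promoter table (GRCm38.p6), in which 4 of the 8 members were matched (Cish, Socs1, Socs3 and Socs4), and the 250 bases before the annotated start were searched on both strands. The search used the core of the interferon-stimulated response element, bound by factors of the IRF family (GAAA, any 2 bases, then GAAA again), and TTCNNNGAA, the palindrome bound by STAT dimers. The Socs1 window lies at chr16:10785537-10785786 on the minus strand, and capitals mark its matches to the interferon-type core:
Socs1: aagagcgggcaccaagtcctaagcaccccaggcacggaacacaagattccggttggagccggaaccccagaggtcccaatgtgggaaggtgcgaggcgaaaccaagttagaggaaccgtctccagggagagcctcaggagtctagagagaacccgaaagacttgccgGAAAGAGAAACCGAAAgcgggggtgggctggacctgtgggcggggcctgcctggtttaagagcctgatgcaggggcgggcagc
The capitals hold 2 overlapping matches on the strand of the gene, GAAAGAGAAA from base -83 to -74 and GAAACCGAAA from -77 to -68 relative to the start. Of 32851 windows of the same length, 2.98% held the motif at least once and 0.18% at least 2 times. The Socs3 window held 1 match to TTCNNNGAA, TTCTTAGAA from base -154 to -146, a motif present in 7.02% of windows. That window lies inside the longer span that RefSeq's gene table gives Socs3, so it may belong to the start of a shorter transcript rather than to that of the full gene. The windows of Cish and Socs4 held neither set of letters. A match is a description of the sequence, and binding was not measured here.

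Socs2 and Cish are the members linked most closely to STAT5, the factor activated by GM-CSF, interleukin 2-type cytokines and growth hormone. Socs2 was called in all 3 comparisons and Cish in none of them. Socs2 stood at 12.04 and 12.07 in wild type given PBS, 13.41 and 13.34 in wild type given HDM, and 12.95, 12.97 and 13.14 after HDM without Irf3. Each group kept its own range, in the same order as for Socs1. The rise in wild type was 1.32 ± 0.09 (SE; interval 1.12 to 1.52; adjusted p = 6.29e-07). HDM-treated Irf3-deficient cells were 0.96 ± 0.08 above PBS-treated wild type (interval 0.78 to 1.14; adjusted p = 2.75e-05), a 1.95-fold difference, and lay 73.1% of the way from PBS- to HDM-treated wild type. The difference between the HDM-treated genotypes was -0.35 ± 0.08 (interval -0.53 to -0.17; adjusted p = 0.00901) and was not called without replicate 1 of HDM-treated wild type (-0.32, adjusted p = 0.061). Whether the genotype difference of Socs1 is larger than that of Socs2 was not tested.

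A second Socs2 probeset gave the same order of groups at other sizes. It read 9.51 and 9.29 in wild type given PBS, 10.93 and 10.93 in wild type given HDM, and 10.20, 10.21 and 10.49 after HDM without Irf3. Of the 20 named probesets numbered nearest to it, 19 belonged to genes on chromosome 10, where RefSeq (GRCm38.p6) places Socs2, whereas 17 of the 20 nearest the brighter probeset belonged to genes on chromosome 12. Which transcripts each probeset catches is not given in the sources used here, and whether the brighter one reads a near-identical copy was not tested. With the probeset numbered among chromosome 10 genes, the rise in wild type was 1.53 ± 0.13 (SE, adjusted p = 4.5e-06) and the genotype difference was -0.63 ± 0.12 (adjusted p = 0.00241), larger than the value above. Irf3-deficient cells then lay 59.0% of the way from PBS- to HDM-treated wild type.

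Cish, which encodes CIS, read 10.99 and 11.19 in wild type given PBS, 10.86 and 11.17 in wild type given HDM, and 10.62, 10.56 and 10.85 after HDM without Irf3. The wild type groups overlapped, and the difference after HDM was -0.08 (interval -0.38 to 0.23; adjusted p = 0.791), so a rise of the size seen for Socs2 lies outside the interval. All 3 Irf3-deficient arrays were below every wild type array, the highest of them by a margin under the spread within groups. The deficient mean differed from HDM-treated wild type by -0.34 ± 0.13 (SE; adjusted p = 0.0891) and from PBS-treated wild type by -0.41 ± 0.13 (adjusted p = 0.0595). The latter passed under 7 of 16 other settings and the former under 2. These settings overlap: against PBS-treated wild type, the fits with a replicate block and the fit without replicate 3 of the deficient group gave the same -0.50.

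Socs3, the brake on gp130 receptors such as that of interleukin 6, read 12.79 and 12.64 in wild type given PBS, 12.32 and 12.39 in wild type given HDM, and 12.66, 12.30 and 12.40 after HDM without Irf3. Both HDM-treated wild type arrays were below both PBS arrays, opposite in sign to Socs1 and Socs2, and the Irf3-deficient arrays spread across the ranges of both. The difference after HDM of -0.36 ± 0.12 (SE; interval -0.62 to -0.11) stood at adjusted p = 0.0515 and passed under 5 of 16 other settings. Between the HDM-treated genotypes the difference was 0.10 (interval -0.13 to 0.33; adjusted p = 0.639). A second, dimmer Socs3 probeset differed by -0.29 and 0.11 in these comparisons.

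Socs7, one of the less studied long members with binding partners outside the JAK-STAT route, was the third gene lower in Irf3-deficient cells. It read 9.24 and 8.93 in wild type given PBS, 9.09 and 9.69 in wild type given HDM, and 8.88, 8.76 and 8.85 after HDM without Irf3. The deficient arrays were the lowest of the 7, and the HDM-treated wild type arrays stood far apart from each other. The genotype difference was -0.56 ± 0.16 (SE; interval -0.91 to -0.22; adjusted p = 0.0249). Without replicate 2 of HDM-treated wild type it was -0.26 (adjusted p = 0.353), and 3 further settings also ended the call, at adjusted p between 0.0513 and 0.0803. Its difference after HDM in wild type was 0.31 (interval -0.07 to 0.69; adjusted p = 0.293), and 0.61 without replicate 1 of that group (adjusted p = 0.0206). Within groups the SD of Socs7 was 0.24, against a median of 0.11 over all genes.

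Socs4, Socs5 and Socs6, which are known mainly for binding growth factor receptors and adaptors, were not called in any of the 3 comparisons. Socs4 ranged from 9.87 to 10.34 over the 7 arrays, with both wild type groups spanning most of that range, and its difference after HDM was -0.03 (interval -0.37 to 0.30). Socs5 ranged from 8.94 to 9.18 and had the smallest SD within groups of the family, 0.04. Its 3 groups did not overlap, in the order PBS-treated wild type, HDM-treated wild type and Irf3-deficient, but the differences were small: -0.08 between the wild type groups (interval -0.31 to 0.16), -0.11 between the HDM-treated genotypes (-0.33 to 0.11) and -0.18 between deficient and PBS-treated wild type cells (-0.40 to 0.03). Socs6 ranged from 9.33 to 9.71, with a difference after HDM of -0.08 (interval -0.38 to 0.21).

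All 20 named probesets numbered nearest to the one used for Socs6 belonged to genes on chromosome 7, while RefSeq places the gene on chromosome 18. Of the other Socs6 probesets, which are numbered near genes of that chromosome, the brighter gave -0.18 ± 0.27 (SE) in wild type and -0.14 ± 0.24 between the HDM-treated genotypes, and the dimmer stayed near 4.39. None of these values changed a call.

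**Figure D2:**
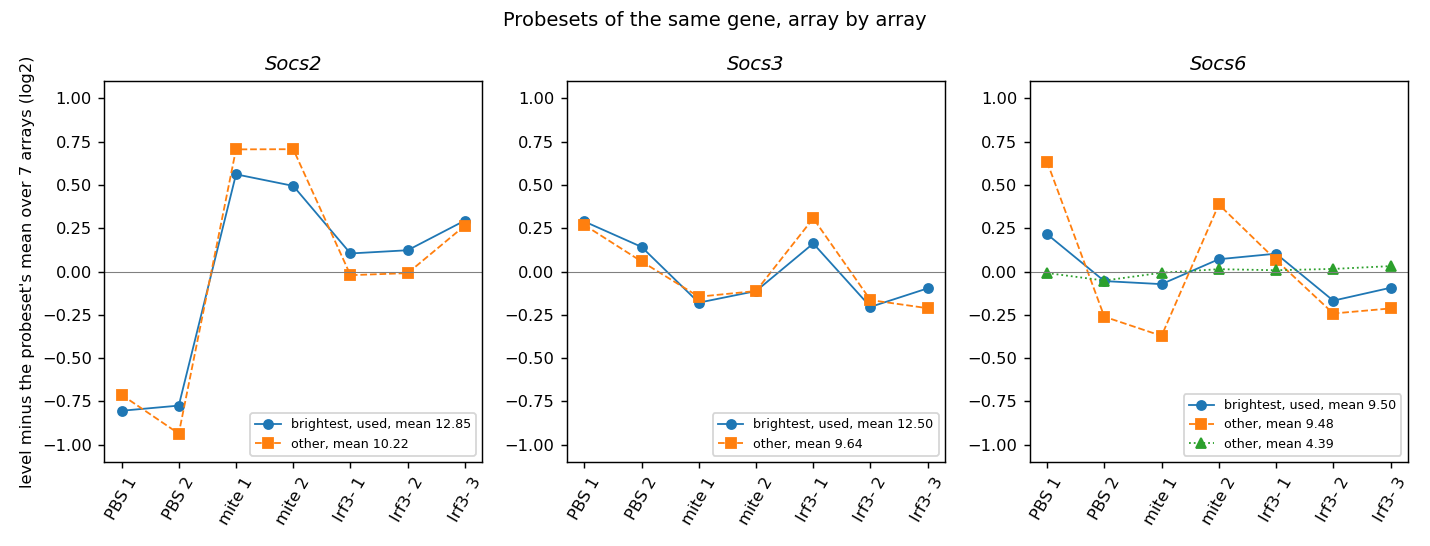
Level of each probeset minus its own mean over the 7 arrays (log2) for the 3 members with several probesets; PBS and mite are wild type arrays, Irf3- are HDM-treated Irf3-deficient arrays, numbers are replicates, and lines only join the points of a probeset. The Socs2 probesets, with means of 12.85 and 10.22, placed the groups in the same order, and the Socs6 probeset with a mean of 4.39 hardly moved.

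The groups' ranges were also compared directly. Between HDM- and PBS-treated wild type the ranges did not overlap for 4 of 8 members (Socs1, Socs2, Socs3 and Socs5), against 52.6% of all genes. Between the HDM-treated genotypes this held for 5 of 8 (Cish, Socs1, Socs2, Socs5 and Socs7), against 43.7%, and between deficient and PBS-treated wild type cells for the same 5 members, against 39.1%. The median difference over the 8 members was -0.05, -0.22 and -0.16 in the 3 comparisons, and over all genes 0.03, 0.00 and 0.04. In limma at an unadjusted p under 0.05, Socs3 was the single member lower after treatment in wild type, Cish joined Socs1, Socs2 and Socs7 as lower between the HDM-treated genotypes, and Cish and Socs3 were lower in deficient than in PBS-treated wild type cells.

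**Figure D3:**
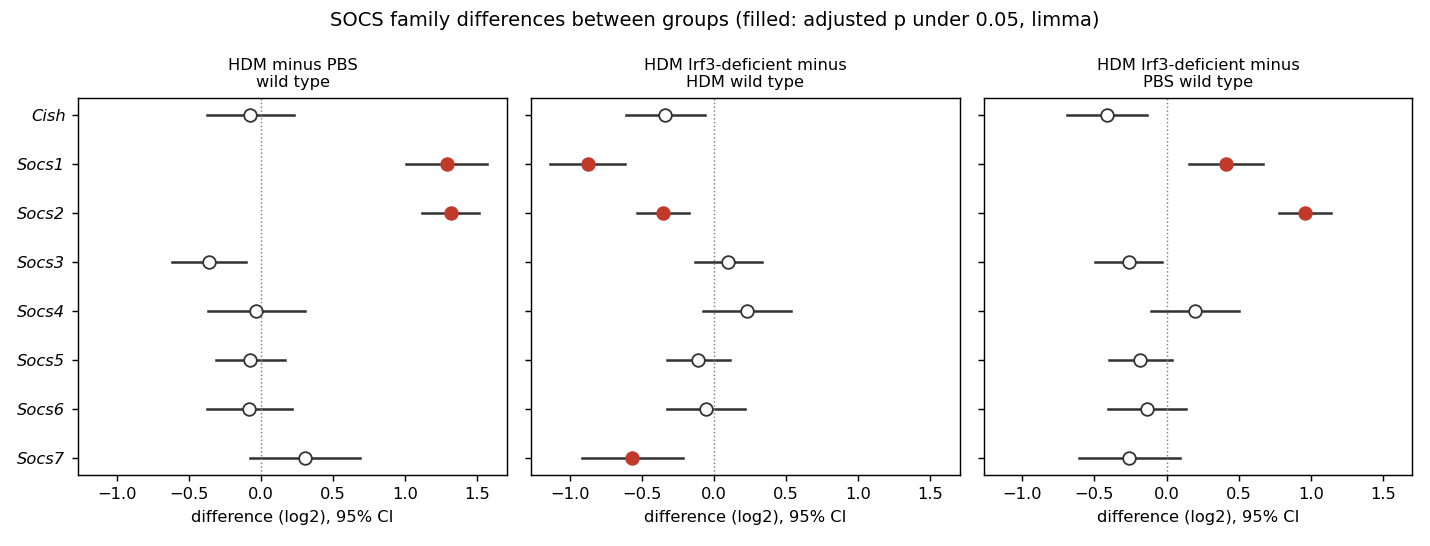
Difference in log2 level with its 95% confidence interval for each member in the 3 comparisons; filled points passed at an adjusted p under 0.05. The intervals of Socs1 and Socs2 lie above 1 between HDM- and PBS-treated wild type, and Cish, Socs4, Socs5, Socs6 and Socs7 have intervals there that include 0.

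The genes around the SOCS family were read from lists of the JAK-STAT route, chosen by textbook role, of which 159 of 171 genes had a probeset of their own. In wild type 48 of these rose and 10 fell, and between the HDM-treated genotypes 15 were higher and 43 lower in Irf3-deficient cells. Over all genes, 8.35% rose and 9.23% fell in wild type, and 10.7% were higher and 9% lower between the HDM-treated genotypes. Every list and marker count below is to be read beside these shares, and lists were not tested as sets. SOCS1 restrains the interferon receptors. Of 14 interferon and interferon receptor genes, 5 rose and 2 fell with treatment, and without Irf3 4 were lower and 2 higher (list medians 0.17 and -0.09). Ifna2 rose by 1.35 (adjusted p = 6.86e-06) and Ifna4 by 0.99 (adjusted p = 2.06e-05), and both were lower without Irf3, at -1.38 and -0.91. Both were dim in PBS-treated wild type, at 6.82 and 6.14, against 6.70 at the 25 percentile of genes by mean level. In HDM-treated wild type they stood at 8.17 and 7.13. These alpha interferon genes are near-identical to each other, so their probesets may share targets. Receptor genes were among those that moved the other way. Ifngr1 fell by 0.82 with treatment (adjusted p = 0.000269) and was 0.73 higher in Irf3-deficient cells, and Ifnlr1 fell by 0.51. Ifnar1 was 0.33 higher in deficient cells (adjusted p = 0.0329).

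Ligands of gp130-type and interleukin 10-type receptors rose in 6 of 14 cases. Socs3 was not called in that comparison, and a link between these ligands and Socs3 was not tested. Il12b rose by 1.77 (adjusted p = 1.9e-07) and Il27 by 1.13 (adjusted p = 0.000308). Between the HDM-treated genotypes 4 were lower, among them Il27 at -1.03 and Ebi3 at -0.66, and Il10 and Il23a were higher, by 0.84 and 0.74. The HDM-treated wild type arrays stood far apart for Il10, with an SD of 0.68. Of 14 receptors of this type, 3 rose and 5 fell. The interleukin 6 receptor chain gene Il6ra fell by 0.91 (adjusted p = 3.8e-05) and the leukaemia inhibitory factor receptor gene Lifr fell by 1.41 (adjusted p = 1.28e-05), whereas the interleukin 12 and interleukin 23 receptor chains Il12rb2 and Il23r rose by 2.09 and 1.52. Il23r was dim, at 5.93 in PBS-treated and 7.44 in HDM-treated wild type. In Irf3-deficient cells 3 of these receptors were higher, Il6ra by 0.64 and Il27ra by 0.71 among them, and 3 lower, including Il12rb2 at -1.48 and Il23r at -1.35.

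Receptors listed for STAT5 or STAT6 rose in 6 of 16 cases and fell in 1. Of these 2 factors, STAT5 is the one tied to Cish and Socs2. Il2ra, the interleukin 2 receptor alpha chain, rose by 2.29 (adjusted p = 8.24e-09) and Il15ra by 2.46 (adjusted p = 1.95e-08), and Il13ra1 fell by 0.45. Of 15 ligands of these receptors 2 rose, Il15 by 2.30 (adjusted p = 6.61e-07) and Il2 by 0.57 (adjusted p = 0.0322). Il2 was dim in both wild type groups, at 6.92 with PBS and 7.49 with HDM, below the median gene level of 7.92. Between the HDM-treated genotypes 5 receptors were lower, led by Il15ra at -1.70 and Il21r at -1.42, and 4 were higher. The higher ones were Il13ra1 at 0.51 and the 3 listed chains of the GM-CSF and interleukin 3 receptors: Csf2ra at 0.70 (adjusted p = 0.000604), Csf2rb2 at 0.46 (adjusted p = 0.0107) and Csf2rb at 0.26 (adjusted p = 0.0485). Csf2rb and Csf2rb2 are close paralogues whose probes may share targets. The ligand Il15 differed by -2.71 without Irf3 (adjusted p = 1.12e-07) and was the only listed ligand of this type called there.

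Among the Janus kinases, Jak1, Jak2 and Tyk2 had a probeset of their own. Their differences after HDM in wild type were 0.03, 0.26 and 0.22, none called, and Tyk2 was lower in Irf3-deficient cells at -0.54 (adjusted p = 0.00392). Of 6 STAT genes measured, 5 rose (list median 0.82) and 3 were lower without Irf3 (list median -0.37). Stat2 rose by 2.32 (adjusted p = 7.29e-08) and differed by -1.92 between the HDM-treated genotypes, and Stat4 rose by 1.96 and differed by -1.04. Stat5a, the factor tied to Cish and Socs2, rose by 0.79 (adjusted p = 0.000225) and differed by -0.20 between the genotypes (adjusted p = 0.207).

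The partners of the ubiquitin ligase and the other genes with a SOCS box were counted beside all genes. Of all genes, 17.6% were called between the wild type groups and 19.7% between the HDM-treated genotypes. Of 9 partners of the ubiquitin ligase, 3 rose and 4 were lower without Irf3. The elongin C gene Eloc rose by 0.80 (adjusted p = 0.000656) and the RING subunit gene Rbx1 by 0.56 (adjusted p = 0.00198). Nedd8, which encodes the small protein that activates cullins, was lower without Irf3, at -0.84 (adjusted p = 0.000461), as was Rbx1 at -0.46. The chromosomes of neighbouring probesets were looked up only for the SOCS family. Whether the Rbx1 probeset reads a near-identical copy was therefore not tested. Of 27 other genes with a SOCS box, 4 rose and 3 were lower without Irf3. Asb13 rose by 1.65 (adjusted p = 2.01e-06) and was back near the PBS level in Irf3-deficient cells, at a difference of -1.74 from HDM-treated wild type. Spsb1, which encodes an adaptor for inducible nitric oxide synthase, rose by 1.33 (adjusted p = 1.11e-05), and Wsb2 differed by -0.45 between the genotypes (adjusted p = 0.00599). Other inhibitors of the route rose in 4 of 14 cases and fell in 1. Usp18, the interferon receptor inhibitor, rose by 2.76 (adjusted p = 8.75e-08) and differed by -2.18 between the genotypes. Cblb rose by 0.98 and Cbl fell by 0.39, and in Irf3-deficient cells the phosphatase gene Ptpn6 was lower at -0.46 and Ptprj higher at 0.47.

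**Figure D4:**
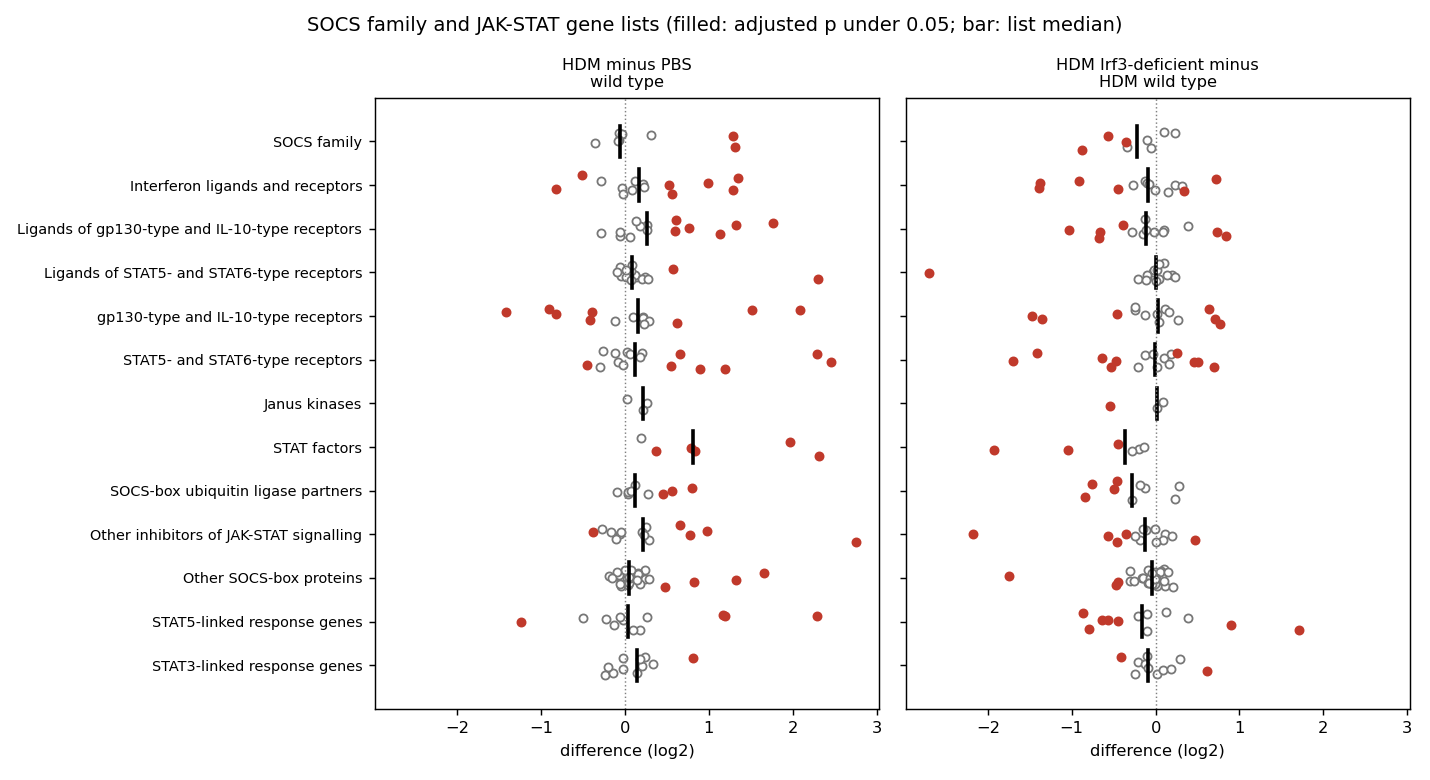
Difference in log2 level for each measured gene of the SOCS family and of 12 JAK-STAT lists, between HDM- and PBS-treated wild type (left) and between the HDM-treated genotypes (right); filled points passed at an adjusted p under 0.05 and the black bar is the list median. The STAT factor genes have the highest median on the left, at 0.82, and the lowest on the right, at -0.37, and the SOCS family medians are -0.05 and -0.22.

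For each member whose group means spanned at least 0.5, which were Socs1, Socs2 and Socs7, the genes with the closest pattern were found by the root mean square difference over the 7 arrays after centring each gene on its mean, a measure in log2 units that is a description and carries no test. For Socs1 the closest were the chaperonin subunit gene Cct3, at a root mean square difference of 0.08, Atmin, at 0.08, and Rnf31, at 0.09, which encodes a subunit of the linear ubiquitin chain ligase. For Socs2 they were Ankrd33b at 0.06, the SOCS box gene Spsb1 at 0.08, and Lad1 at 0.09. For Socs7 they were the co-chaperone gene Bag1 at 0.05, Pih1d1 at 0.07 and Rraga at 0.08, which like Socs7 stood high in replicate 2 of HDM-treated wild type. With Pearson correlation as the measure, 2 of the 3 genes were the same for Socs2, 1 for Socs7, and for Socs1 3 other genes were named (Iffo2, Csnk1d and Mroh8).

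**Figure D5:**
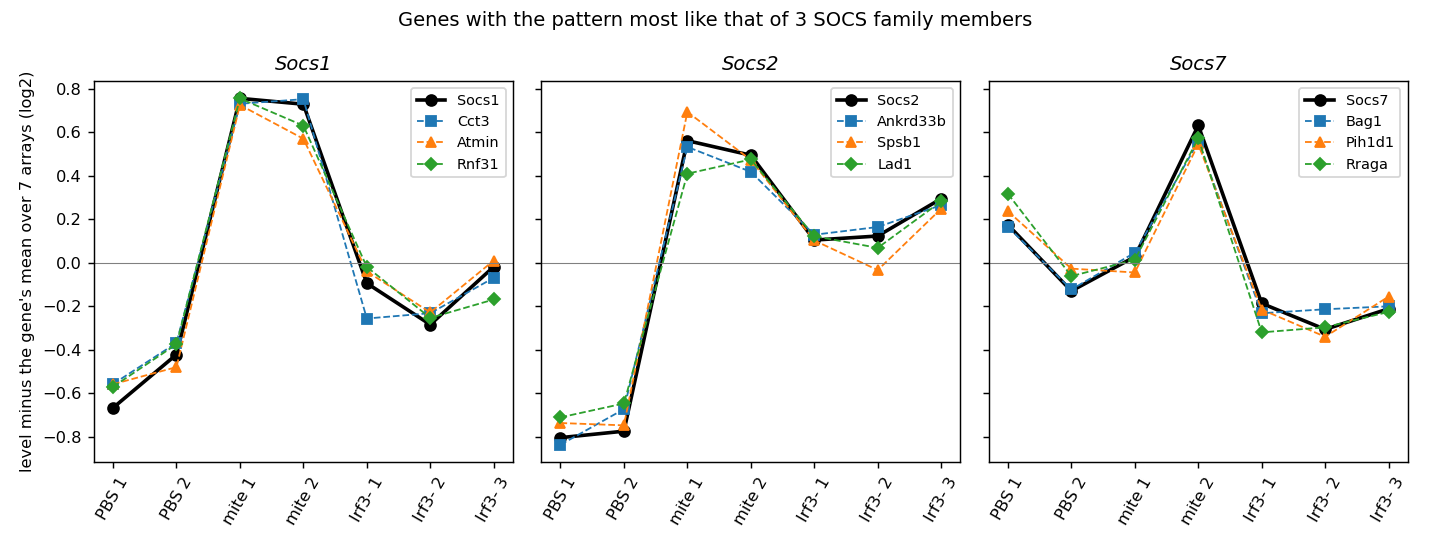
Level minus the gene's own mean over the 7 arrays (log2) for Socs1, Socs2 and Socs7 and the 3 genes closest to each; PBS and mite are wild type arrays, Irf3- are HDM-treated Irf3-deficient arrays, numbers are replicates, and lines only join the points of a gene. Socs1 and Socs2 peak in both HDM-treated wild type arrays, and Socs7 peaks in replicate 2 of that group, at a level of 9.69.

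Markers of the labelled cell type and of other cells were both bright, and both moved between the groups. The 10 cDC2 markers lay between the 77 percentile (Zbtb46) and the 99.9 percentile (H2-Ab1) of all genes by mean level, with Itgax at 98.9 and Itgam, which encodes CD11b, at 94.8. Some markers of other cells were as bright, among them C1qb of macrophages at 99.2, Sftpc of alveolar epithelium at 98, Scgb1a1 of airway epithelium at 97.6 and Wdfy4 of cDC1s at 95.7, so brightness did not set the cDC2 markers apart. Of the 10 cDC2 markers, 4 were lower and 1 higher after treatment, and 5 were higher and 1 lower in Irf3-deficient than in HDM-treated wild type cells. Itgam, the gene of a protein used in the gate, had the opposite group order to Socs1 and Socs2. Its means were 12.07 in PBS-treated wild type, 11.01 in HDM-treated wild type and 11.73 in Irf3-deficient arrays. Of 10 measured monocyte and macrophage markers, 8 were lower after treatment, and 7 were higher and 1 lower in Irf3-deficient than in HDM-treated wild type cells. The mean level over that list was 10.47 to 10.71 in PBS-treated wild type, 9.52 to 9.89 in HDM-treated wild type and 10.27 to 10.38 in Irf3-deficient arrays, so it ran opposite to Socs1 and Socs2. The exception was Fcgr1, the CD64 gene whose protein the sort excluded, which rose by 1.79 and differed by -1.67 between the HDM-treated genotypes. Of 8 epithelial and stromal markers 5 were lower after treatment, with list means of 10.40 to 10.55, 9.77 to 10.08 and 9.94 to 9.99 in the 3 groups. Without Irf3, 1 of these 8 was higher and 1 lower than in HDM-treated wild type. The means of the T and NK cell and the B cell and plasmacytoid dendritic cell lists were, like Socs1 and Socs2, highest in HDM-treated wild type. Unlike those genes, their ranges in Irf3-deficient and PBS-treated wild type arrays overlapped. Of 8 T and NK cell markers, 3 were higher after treatment, and 4 were lower and 1 higher without Irf3, with list means of 6.55 to 6.62, 6.70 to 6.76 and 6.49 to 6.58 in the 3 groups. Of 7 markers on the B cell and plasmacytoid list, 3 were higher after treatment and 2 lower without Irf3, with list means of 7.96 to 8.11, 8.35 to 8.49 and 8.03 to 8.08. Bst2 moved most on that list, with group means of 9.67, 12.11 and 9.86 in the same order. Cd79b and Siglech were instead lowest in HDM-treated wild type, at 8.41 and 7.49, and Cd79a and Pax5 hardly moved. Of 8 cDC1 markers, 2 were higher and 3 lower after treatment, and 1 was higher and 3 lower without Irf3. Irf8 had means of 10.99 in PBS-treated wild type, 12.60 in HDM-treated wild type and 11.40 in Irf3-deficient arrays, the group order of Socs1 and Socs2. Wdfy4 had means of 12.47, 11.64 and 11.42 in these groups. Of 7 neutrophil markers 1 was higher after treatment and 1 higher without Irf3, and of 7 eosinophil, mast cell and basophil markers 1 was lower after treatment. No level on these arrays is 0 and no detection call was used, so absence cannot be read. The part of these cells in the values of Socs1, Socs2 and Socs7 was not tested.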

How the data were processed

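The authors deposited log2 expression values for 35556 probesets of Affymetrix Mouse Gene 1.0 ST arrays, which were used as deposited. RMA, oligo and R 3.2.1 were listed as tools per the submitters' processing notes, with no role stated for any. The array medians lay between 7.60 and 7.69. The number of arrays limits the precision, and no genome build was stated for the probesets. Probesets were named through the platform annotation: 21789 had 1 gene symbol, 1621 had several and 12146 were not listed. Symbols were updated by Entrez identifier (RefSeq, GRCm38.p6), which matched 19856 of 19939 genes. A linear model with a mean for each group was fitted to the 7 arrays together (limma 3.58.1, R 4.3.3; eBayes with an intensity trend; 4 residual and 8.34 prior degrees of freedom). The fit was tested on simulated data. Nothing says that pools came from separate experiments, so p-values measure only the spread between pools.

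The members and lists were chosen with earlier results of these data known. Named genes are the 8 members, Irf3, up to 2 genes per list, direction and comparison with the smallest p, and the 3 genes closest in pattern to members spanning at least 0.5. Jak1, Jak2, Stat5a, Csf2rb and Csf2rb2 were named after their values were seen. The 159 pathway genes counted include 1 list that is not reported here. Sequences of proteins were not used here.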

Additional observations from a re-analysis of the deposited data

How the results depend on the processing

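Each of the 24 differences of the 8 members (3 comparisons) was recomputed under 16 other settings. Of these 384 values, 347 kept their direction and their side of the threshold, 11 lost the call, 16 gained one and 10 changed sign, all of them uncalled in both fits. Many of the 384 could not change direction. Settings that altered only the test, or left out an array outside the comparison, kept the difference itself. Averaging probesets did the same for members with 1 probeset. The 347 is therefore not a count of separate checks. The rise of Socs1 and Socs2 in wild type, the genotype difference of Socs1 and the difference of Socs2 from PBS-treated wild type passed under all 16. Leaving out 1 array at a time left 2 to 3 members called between HDM- and PBS-treated wild type, 2 to 3 between the HDM-treated genotypes and 1 to 3 between deficient and PBS-treated wild type cells, the 1 being without replicate 1 of PBS-treated wild type. Centring arrays on their medians also left 1 there. The JAK-STAT genes called ranged from 44 to 62, 45 to 58 and 16 to 37 with an array left out, and the 16 came without replicate 1 of PBS-treated wild type.

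A wild type group left with 1 array was assumed to vary like the other groups. Signs changed when 1 array was left out. In wild type the difference then ran from -0.24 to 0.18 for Socs4, from -0.22 to 0.0543 for Socs6 and from -0.23 to 0.077 for Cish. Between the HDM-treated genotypes it ran from -0.13 to 0.0198 for Socs6 and from -0.0043 to 0.18 for Socs3, the latter turning without replicate 1 of the deficient group. Against PBS-treated wild type it ran from -0.27 to 0.0021 for Socs6 and from -0.0125 to 0.41 for Socs4. None of these differences was called with all arrays or with 1 left out, and the causes were not tested.

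Replicate numbers are shared between groups, but same-numbered arrays did not deviate together: correlations of their deviations ran from -0.233 to 0.178. Replicate 3 exists only in the deficient group, so a block takes that array out of the differences. With a replicate block, 2, 4 and 2 members were called in the 3 comparisons, and all genes called against PBS-treated wild type went from 2153 to 1426. Cish then passed between the HDM-treated genotypes (-0.42, adjusted p = 0.0497) and against PBS-treated wild type (-0.50, adjusted p = 0.0416), and Socs1 did not pass against PBS-treated wild type (adjusted p = 0.19). With the numbers of HDM-treated wild type crossed, chosen after seeing the data, 3, 3 and 2 members were called. The swap of Socs2 and Socs6 probesets was also chosen after seeing the data.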

Other observations

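Response genes linked to STAT5 and STAT3 moved unevenly beside the SOCS family. Of 12 STAT5-linked genes, 3 rose and 1 fell with treatment. Il2ra rose by 2.29 and the cyclin gene Ccnd2 by 1.16, while Igf1, a growth factor gene also made by macrophages, fell by 1.24. In Irf3-deficient cells 5 were lower, Ccnd1 at -0.87 and Il2ra at -0.64 among them, and Igf1 and the survival gene Bcl2 were higher, by 1.71 and 0.89. The HDM-treated wild type arrays stood far apart for Igf1, with an SD of 0.59. Of 11 STAT3-linked genes, Bcl3 rose by 0.81 (adjusted p = 0.00137 in limma), and between the HDM-treated genotypes Sbno2 was lower at -0.42 and Vegfa higher at 0.61.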
